A study of Mus musculus with 8 samples.

Results

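The GATA factors are transcription factors that bind DNA at the letters GATA through a pair of zinc fingers, and the mouse has 6 of them, Gata1 to Gata6. Their FOG partners, FOG1 (gene Zfpm1) and FOG2 (gene Zfpm2), do not read the motif themselves but dock onto the amino-terminal zinc finger of a GATA factor, and bring with them corepressors such as CtBP and the NuRD complex. These 8 genes are the members of both families, listed by name, and were matched by Entrez gene identifier among the 27179 genes counted. Of the 8, 6 passed the filter on low counts, as did 16658 of all counted genes.

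Gata1, Gata2 and Gata3 are best known from blood: GATA1 drives the red cell, megakaryocyte and mast cell programmes, GATA2 the stem and progenitor cells and mast cells, and GATA3 the T cells and type 2 innate lymphoid cells, with further roles in skin and breast epithelium. Gata4, Gata5 and Gata6 act in mesoderm and endoderm, among them heart, gut and gonad. In the uterus GATA2 is known as a regulator of the progesterone receptor and its downstream genes, and FOG2 is known as the partner of GATA4 in heart and gonad development.

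RNA was sequenced from whole uteri of mice at postnatal day 10, when uterine glands are forming. The 4 controls carried the floxed Ezh2 allele without Cre (genotype Ezh2 f/f), and the 4 conditional knockouts (cKO) carried the same floxed allele with Amhr2-Cre (genotype Ezh2 f/f; Acre). EZH2 is the catalytic subunit of Polycomb repressive complex 2 (PRC2), which silences genes by methylating histone H3, and Amhr2-Cre is active in the mesenchyme around the Müllerian duct and in its descendants, so that a whole uterus also holds cells outside that lineage. The labels number the samples of each genotype and do not say whether one sample is one animal, so the p-values below measure the spread between these samples. The comparison asks whether the level of each GATA and FOG gene differed between the genotypes.

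The libraries held 25287141 to 36685807 counted reads. Ezh2 itself was at 45.0 ± 8.70 CPM (read counts normalized to library size with TMM scaling, mean ± SD, n = 4) in controls and 36.8 ± 4.41 CPM (n = 4) in cKO, and the groups overlapped (log2 fold change -0.29, adjusted p = 0.247). Counts over a whole gene also take in the exons that Cre leaves, so this is a weak check of the labels. The stroma, smooth muscle and epithelium lists were high in all 8 libraries, with summed levels of 8567 to 12885 CPM, 8950 to 11340 CPM and 1330 to 1840 CPM. The stroma list summed to 8567 to 11064 CPM in controls, 10112 CPM in cKO 4 and 12793 to 12885 CPM in cKO 1 to 3. The endothelium list was at 1032 to 1285 CPM in controls, 1054 CPM in cKO 4 and at least 1275 CPM in cKO 1 to 3. In the epithelium list cKO 4 was the highest library, at 1840 CPM. The part of these differences in the member levels was not tested. The 13 ovary genes summed to 54.1 to 72.9 CPM, mostly Foxl2 (51.9 CPM in controls and 44.6 CPM in cKO), with Fshr, the granulosa cell receptor gene, at 0 in all 8 libraries. Of the cKO libraries, cKO 4 also stood apart in a list of 11 fat genes. Their summed level was 13.1 to 16.6 CPM in controls, 116.1, 248.4 and 118.4 CPM in cKO 1, 2 and 3, and 16.0 CPM in cKO 4. Adipoq, which encodes the fat hormone adiponectin and was chosen after its values were seen, reached 11.7 to 23.7 CPM in cKO 1 to 3 and 0.035 CPM in cKO 4. The result of each tested member is therefore also given for cKO 4 alone against the controls and with a fat score as a covariate. Since the fat score of cKO 4 lay among the controls and those of cKO 1 to 3 far above, the genotype term of the second fit rests largely on cKO 4, and both fits are nearly the same comparison.

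PRC2 is known to gather at promoters rich in CG dinucleotides, so sequences just before a start site are shown for an almost silent gene, for the most highly expressed one and for the one richest in CG. Windows of 250 bases before the RefSeq start site were at hand for 5 of the 8 genes (6 windows, since Gata2 has an upstream and a downstream start), in assembly GRCm38.p6. No window was at hand for Gata4, Gata6 or Zfpm2. The sequences and counts here therefore do not cover Gata6 and Zfpm2, the members reported below as higher in cKO. In these 5′ to 3′ sequences the capitals mark every CG. The sets are Gata1, which was almost silent (chrX:7967911-7968160, minus strand), the upstream and downstream starts of Gata2, the most highly expressed member (chr6:88193641-88193890 and chr6:88198414-88198663, plus strand), and Zfpm1, the richest in CG (chr8:122281891-122282140, plus strand). The Gata1, Gata3, Gata5 and Zfpm1 windows lie inside the gene spans given below, which reach to the outermost annotated start, as does the downstream window of Gata2.
Gata1: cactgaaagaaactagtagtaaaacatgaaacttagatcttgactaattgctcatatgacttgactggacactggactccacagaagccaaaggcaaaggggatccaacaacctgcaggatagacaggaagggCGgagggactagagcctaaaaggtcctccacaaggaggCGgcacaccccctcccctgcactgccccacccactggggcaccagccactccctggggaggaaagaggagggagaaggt
Gata2, upstream start: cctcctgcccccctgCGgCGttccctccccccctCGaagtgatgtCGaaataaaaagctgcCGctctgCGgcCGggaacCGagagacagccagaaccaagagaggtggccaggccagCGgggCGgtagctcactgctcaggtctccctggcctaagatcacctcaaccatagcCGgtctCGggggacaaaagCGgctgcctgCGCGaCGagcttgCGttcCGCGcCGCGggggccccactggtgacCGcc
Gata2, downstream start: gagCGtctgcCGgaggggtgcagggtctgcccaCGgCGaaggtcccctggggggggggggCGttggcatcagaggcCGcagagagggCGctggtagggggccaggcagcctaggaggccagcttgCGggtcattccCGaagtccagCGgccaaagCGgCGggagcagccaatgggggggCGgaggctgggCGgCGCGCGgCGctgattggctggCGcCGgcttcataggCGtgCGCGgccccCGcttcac
Zfpm1: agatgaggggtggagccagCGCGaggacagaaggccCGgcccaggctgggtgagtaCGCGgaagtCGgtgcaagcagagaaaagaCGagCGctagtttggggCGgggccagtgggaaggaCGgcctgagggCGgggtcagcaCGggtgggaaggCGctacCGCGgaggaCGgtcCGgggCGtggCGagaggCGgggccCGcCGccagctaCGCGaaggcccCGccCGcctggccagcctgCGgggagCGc
The Gata1 window held 2 CG, and 81.2% of all 32841 windows held as many or more. The Gata2 windows held 22 and 24 (14.8% and 12% of windows held as many or more), Zfpm1 held 28 (7.61%), Gata3 held 19 (19.7%) and Gata5 held 22 (14.8%), against a median of 6 over all windows. The letters GATAA were searched on both strands, that is also as TTATC, and were found in 0 of the 6 windows and in 22.6% of all windows. These counts describe the letters of the windows and no binding was measured.

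Levels of different genes are compared here per length, as CPM per kb of the longest coding transcript. Gata2 was by far the most abundant member, at 73.2 ± 2.90 CPM per kb in controls and 83.3 ± 8.19 CPM per kb in cKO (n = 4 each). Zfpm1 followed at 9.68 and 10.4 CPM per kb, then Gata6 at 5.53 and 9.15, Zfpm2 at 2.31 and 3.38, Gata5 at 1.67 and 2.07, and Gata3 at 0.469 and 0.590 CPM per kb. Gata1 and Gata4 lay near 0. With these lengths, within each genotype no library of one of these 6 genes reached the range of the next, except that Zfpm1 and Gata6 overlapped in cKO, where Gata6 reached 10.5 and Zfpm1 began at 9.70 CPM per kb. The order of neighbours depends on the length used. With the union of all exons as the length, a choice added after seeing the data, Zfpm2 was at 1.40 ± 0.193 CPM per kb in controls, below Gata5 at 1.67 ± 0.228, and at 2.05 ± 0.410 against 2.07 ± 0.458 in cKO, with overlapping ranges in both genotypes. Zfpm1 and Gata6 then no longer overlapped in cKO, where Gata6 reached 5.196 and Zfpm1 began at 9.39 CPM per kb.

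**Figure D1:**
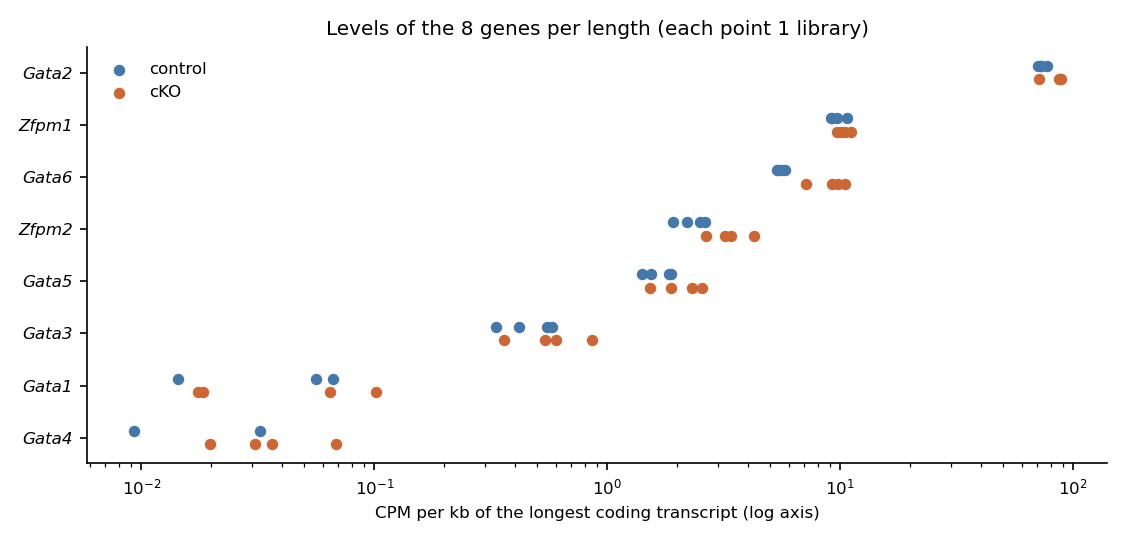
Level of each gene in each of the 8 libraries, in CPM per kb of the longest coding transcript on a log axis, with controls in blue and cKO in orange. Gata2 sits highest and Gata1 and Gata4 lowest; libraries without a count (1 for Gata1 and 2 for Gata4) cannot be drawn on the log axis.

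Gata2 made up 90.5% of the summed GATA level per kb in controls (90.0% to 91.1% over the 4 libraries) and 87.6% in cKO (86.1% to 88.7%). Gata6 made up 6.84% in controls (6.40% to 7.20%) and 9.57% in cKO (8.92% to 10.3%). Neither pair of ranges overlapped. The ratio of Gata2 to Gata6 per kb was 13.3 ± 0.707 in controls and 9.18 ± 0.716 in cKO (n = 4 each), and ran from 12.6 to 14.2 and from 8.35 to 9.94, so that cKO 4 too lay on the cKO side. As a share of all tested genes ranked by mean CPM, Gata2 stood at percentile 96.8 and Gata6 at percentile 50.02. Union lengths gave Gata2 89.7% of the summed GATA level over all 8 libraries, against 89.0% with the transcript length.

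Gata6 rose in the cKO uterus by 1.65-fold, Zfpm2 rose by 1.46-fold, and the other 4 tested genes did not pass the test. By the definition of a differentially expressed gene used in the study, a fold change over 2 with an adjusted p under 0.05, 0 of the 6 tested members qualified with edgeR's quasi-likelihood test, where 1.3% of all tested genes did. By DESeq2 and limma-voom the count was also 0, and 3 of the 6 had an unadjusted p under 0.05, as did 21.2% of all tested genes. Without the fold threshold, 2 of the 6 had an adjusted p under 0.05, both higher in cKO, where 5.34% of all tested genes passed in either direction, 2.62% higher and 2.71% lower. The fitted log2 fold change was above 0 in 6 of 6 members, against 50.1% of tested genes, and its median over the 6 was 0.32 against 0.00044 over all. For cKO 4 alone and with the fat score it was above 0 in 3 of 6, with medians of 0.04 and 0.03. Without cKO 1 the median was 0.18. In both members the libraries of the genotypes did not overlap, which held for 12.3% of tested genes in either direction and for 5.88% with cKO higher. The count of 2 became 3 without cKO 4, 1 without any one of controls 1 to 3 or cKO 1 to 3 and with limma-voom, and 0 when cKO 4 alone was set against the controls or a fat score was added to the fit. In 5 of the 6 tested members cKO 4 had the lowest level of the 4 cKO libraries. How often this held over all tested genes was not counted, so it cannot be called particular to these members.

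**Figure D2:**
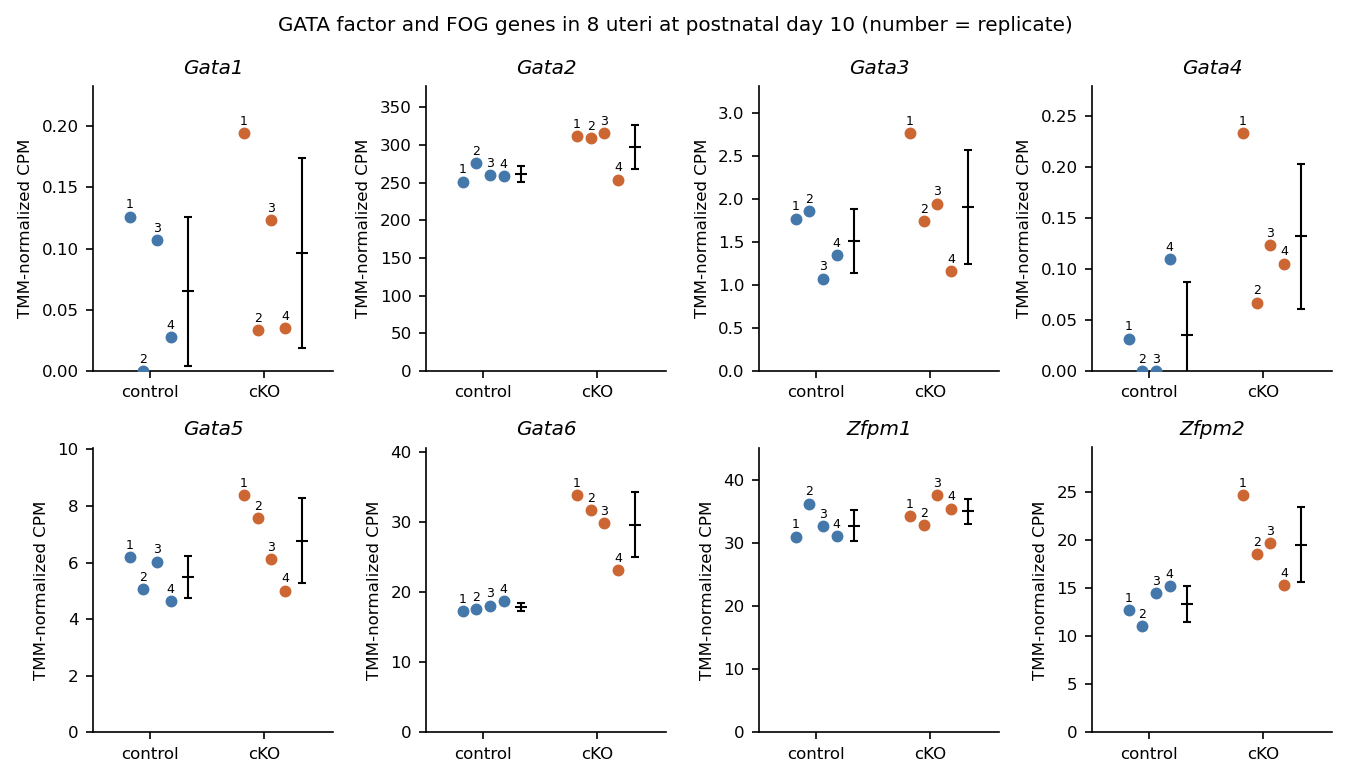
TMM-normalized CPM of the 8 genes in each library, controls in blue and cKO in orange, with the replicate number at each point and the mean ± SD beside each group (bars cut at 0). In the Gata6 and Zfpm2 panels every cKO library lies above every control, Zfpm2 by a margin from 15.21 to 15.30 CPM, and in the Gata2 panel cKO 4 lies at 253.8 CPM, below the other 3 cKO libraries.

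Gata6 encodes a GATA factor of heart, gut and smooth muscle that is also made in the gonad. It lies on chromosome 18 (GRCm38, bases 11052510 to 11085636, plus strand). Its level was 17.2, 17.6, 18.0 and 18.7 CPM in controls 1 to 4 and 33.8, 31.6, 29.8 and 23.1 CPM in cKO 1 to 4. The genotypes did not overlap, and cKO 4 was the lowest cKO library yet above all controls. The summed fat genes of cKO 4 lay at the control level, and their part in the Gata6 level was not tested beyond the fits below. The means were 17.9 ± 0.618 and 29.6 ± 4.62 CPM (n = 4 each), a log2 fold change of 0.73 (SE 0.10, edgeR adjusted p = 0.00144, fold 95% interval 1.42 to 1.93). The exact two-sided permutation test over the 8 libraries gave p = 0.0286, the smallest that 70 arrangements allow. By p-value Gata6 ranked 128 among the 16658 tested genes. Leaving out each library in turn gave log2 fold changes of 0.66 to 0.82, with adjusted p-values from 9.39e-05 to 0.00925. For cKO 4 alone against the controls the log2 fold change was 0.37 (adjusted p = 0.366), and with the fat score in the fit it was 0.37 (adjusted p = 0.332).

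Zfpm2 encodes FOG2, the partner of GATA4 to GATA6 in heart and gonad. It lies on chromosome 15 (GRCm38, bases 40655042 to 41104592, plus strand). Its level was 12.7, 11.1, 14.5 and 15.2 CPM in controls 1 to 4 and 24.7, 18.5, 19.7 and 15.3 CPM in cKO 1 to 4. The highest control (15.21 CPM) and the lowest cKO library (cKO 4, 15.30 CPM) nearly met. The means were 13.4 ± 1.84 and 19.6 ± 3.91 CPM (n = 4 each), a log2 fold change of 0.54 (SE 0.14, adjusted p = 0.0463, fold 95% interval 1.18 to 1.80; exact permutation p = 0.0286). This call was close to the threshold. It was lost without control 1 (adjusted p = 0.139), control 2 (0.0747), control 3 (0.0751), cKO 1 (0.119), cKO 2 (0.0904) or cKO 3 (0.111), and with limma-voom (0.0593). DESeq2 gave 0.0054. The log2 fold change was 0.19 for cKO 4 alone (adjusted p = 0.969) and 0.26 with the fat score (adjusted p = 0.859). In whole tissue, a higher level per cell and more cells of the expressing type cannot be told apart, for this gene and for all others here.

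**Figure D3:**
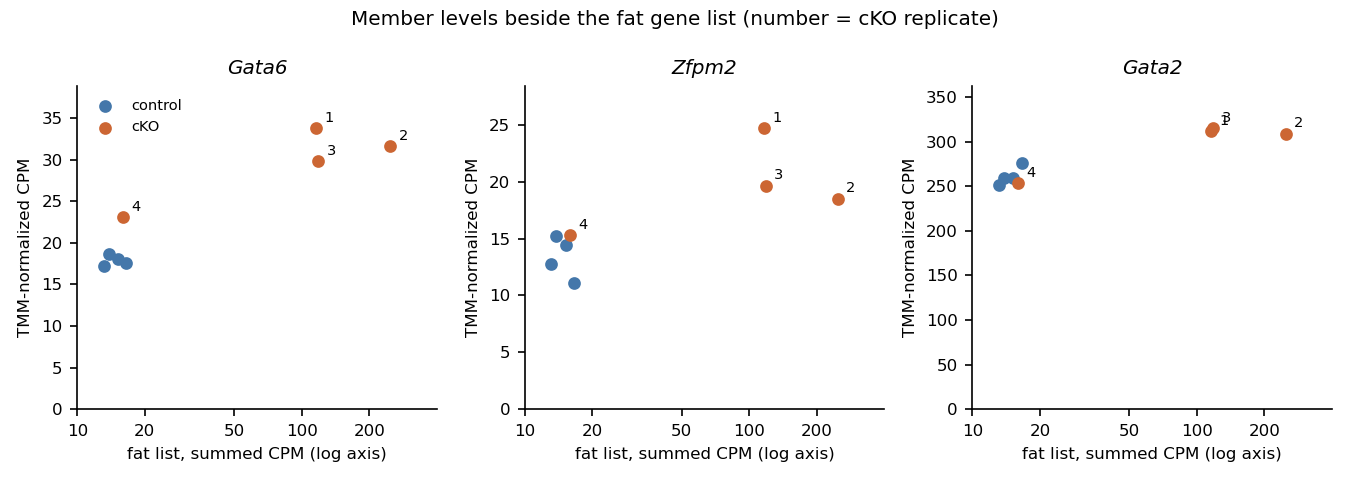
Level of Gata6, Zfpm2 and Gata2 (TMM-normalized CPM) against the summed level of the 11 fat genes (log axis) in the 8 libraries, with cKO replicates numbered. cKO 4 lies at the summed fat level of the controls. In that library Gata6 was at 23.1 CPM (at most 18.7 CPM in controls), and Gata2 and Zfpm2 lay within or beside the control range. That is a single library, and the part of fat tissue in these levels was not tested beyond the fits given.

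Gata2 is known in the uterus for its place in progesterone signalling, and in blood for the stem cell and mast cell programmes; with Gata3 it is also known from the precursors of fat cells. It lies on chromosome 6 (GRCm38, bases 88193891 to 88207032, plus strand). Its level was 251.5, 276.1, 259.5 and 259.0 CPM in controls and 311.8, 309.0, 315.3 and 253.8 CPM in cKO. cKO 1 to 3 lay above all controls, and cKO 4 within the control range. The means were 261.5 ± 10.4 and 297.5 ± 29.2 CPM (n = 4 each), and the log2 fold change of 0.19 (SE 0.07, 95% interval 0.03 to 0.34) did not pass the test (adjusted p = 0.157, exact permutation p = 0.114). Without cKO 4 it was 0.25 and passed (adjusted p = 0.0149), and with cKO 4 alone or the fat score it was -0.04 and -0.05. The part of fat tissue in these values was not tested beyond these fits.

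Zfpm1 encodes FOG1, the partner of GATA1 in red cells and megakaryocytes. It lies on chromosome 8 (GRCm38, bases 122281856 to 122337862, plus strand). Its level was 31.1, 36.3, 32.7 and 31.2 CPM in controls and 34.3, 32.9, 37.7 and 35.5 CPM in cKO, and the genotypes overlapped. The log2 fold change was 0.10 (SE 0.07, fold 95% interval 0.961 to 1.19, adjusted p = 0.461), and it stayed between 0.06 and 0.15 in all 19 alternative fits, cKO 4 alone and the fat score included.

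Gata5 encodes a GATA factor of endoderm, endocardium and bladder. It lies on chromosome 2 (GRCm38, bases 180325088 to 180335503, minus strand). Its level was 6.18, 5.07, 6.03 and 4.64 CPM in controls and 8.39, 7.56, 6.13 and 5.01 CPM in cKO. The genotypes overlapped through cKO 3 and cKO 4. The log2 fold change was 0.30 (SE 0.17, 95% interval -0.06 to 0.67, adjusted p = 0.316), -0.13 for cKO 4 alone and -0.15 with the fat score. Without cKO 1 it was 0.19. An antisense transcript, Gata5os, overlaps it by 2647 bases and had 18 counts in all 8 libraries together. The strand setting of the counting is not given, so reads in the overlap cannot be assigned to one of the pair with certainty.

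Gata3 lies on chromosome 2 (GRCm38, bases 9857078 to 9887953, minus strand). Its level was 1.77, 1.86, 1.07 and 1.34 CPM in controls and 2.76, 1.74, 1.94 and 1.16 CPM in cKO, from 30 to 71 counts a library. The genotypes overlapped, and the log2 fold change was 0.33 (SE 0.27, fold 95% interval 0.838 to 1.88, adjusted p = 0.515). It was -0.38 for cKO 4 alone and -0.32 with the fat score, 0.10 without cKO 1, 0.20 without control 3 and 0.50 without cKO 4. The interval is the widest of the 6 tested genes.

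Gata1 and Gata4 did not pass the filter of 0.2 CPM in at least 4 libraries. Gata1, on chromosome X (bases 7959260 to 7976663, minus strand), had 4, 0, 3 and 1 counts in controls and 5, 1, 4 and 1 in cKO. Gata4, on chromosome 14 (bases 63198914 to 63271712, minus strand), had 1, 0, 0 and 4 counts in controls and 6, 2, 4 and 3 in cKO. Most of these lie at or under 3 counts a library (0.0823 to 0.116 CPM), the limit that a count of 0 allows, so no fold is given. Exact permutation p-values were 0.514 and 0.0857. In the fit without the filter the adjusted p-values were 0.780 and 0.334. Neither gene could be shown at this depth to differ, and Gata4, which works with FOG2 in the gonad, was at most 6 counts in a library.

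**Figure D4:**
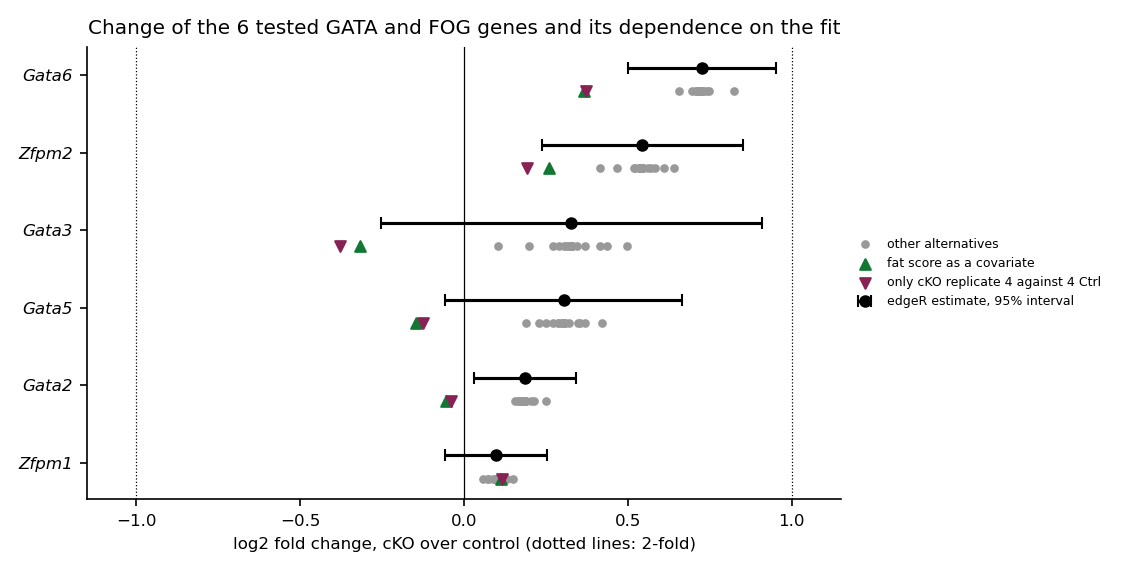
Log2 fold change of cKO over control for the 6 tested genes, with the edgeR estimate and its 95% interval in black, other fits as grey dots below it, the fit with the fat score as a green triangle and cKO 4 alone against the controls as a purple triangle. Gata6, Zfpm2 and Zfpm1 stayed above 0 in every fit, and Gata2, Gata3 and Gata5 fell below 0 in those 2 fits.

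Genes that lie beside a member were compared to see whether a change was shared along the chromosome. The neighbours of Gata6, Mib1 and Rbbp8, had log2 fold changes of -0.16 (adjusted p = 0.292) and -0.01 (0.950). The neighbour of Zfpm2 on its right, Oxr1, was at -0.20 (0.0849), and that on its left, 9330182O14Rik, had 1 count in all. Among the tested neighbours, only Celf2, an RNA-binding protein gene and the protein-coding neighbour to the left of Gata3 at a distance of 2460737 bases, had an adjusted p under 0.05, and it fell by 0.23 (adjusted p = 0.026). The other tested neighbours, Hdac6 of Gata1, Rpn1 of Gata2, Taf3 of Gata3, Neil2 and Blk of Gata4, Rbbp8nl and Slco4a1 of Gata5 and Zfp469 of Zfpm1, lay between -0.13 (Taf3) and 0.38 (Blk) and did not pass. Glod5, Dnajb8, Trhr2 and the lncRNAs 4930412O13Rik and 9230102O04Rik over Gata3 had 0 to 4 counts each in all libraries together. Gata6os and 7 other annotated overlapping genes, none of them protein-coding, were not analysed here. No stretch of 31 bases was shared by any of the 28 pairs of member transcripts, so reads of one member could not be mistaken for another at that length.

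Lists of partners, targets and cell type markers follow, with 22 of their genes, up to 4 a list, named by rule for an adjusted p under 0.05. Thy1, which passed too and is named below, is outside these 22, and its values in the other fits are not given. Of these 22, only Ihh also passed for cKO 4 alone against the controls and with the fat score, but all 22 kept their direction in both fits, and 8 had a log2 fold change at least as large in both, which for these near-repeats counts as one observation on cKO 4. Among the partners, the GATA complex list (19 tested; cofactors such as TAL1, LMO2 and LDB1) had 1 higher gene and 0 lower (median log2 fold change 0.06), close to the 5.34% of all tested genes that passed in either direction. That gene was Lmo4, a LIM-domain adaptor, at 40.2 ± 1.95 CPM in controls and 47.1 ± 1.79 CPM in cKO (log2 fold change 0.23, SE 0.06, adjusted p = 0.0441); it passed without cKO 4 but not without any one of the other 7 libraries (adjusted p up to 0.160), nor with no filter on low counts (0.0564). The FOG and NuRD list of 15 corepressors had 0 genes in either direction (median -0.04), as did the 9 other genes with a GATA-type zinc finger (median 0.02). These medians stood beside 0.00044 over all tested genes.

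The partners of GATA4 and FOG2 in urogenital and heart mesenchyme had 9 tested genes of 16, of which 1 was higher and 2 were lower, where 2.62% of all tested genes were higher and 2.71% lower (median of the 9 genes -0.02). Nr2f1, an orphan nuclear receptor of the COUP family, rose from 2.81 ± 0.755 to 7.26 ± 0.948 CPM (log2 fold change 1.38, SE 0.18, adjusted p = 0.000857). Amhr2, the receptor for anti-Müllerian hormone and the locus of the Cre, fell from 6.15 ± 0.749 to 3.69 ± 0.610 CPM (-0.73, adjusted p = 0.0148, up to 0.0621 without control 1 or cKO 1). Every cKO carried Amhr2-Cre and no control did, so for this gene the Cre allele and the loss of Ezh2 cannot be told apart. Sox9, a gene of epithelium and gonad, fell from 7.79 ± 0.966 to 4.79 ± 0.753 CPM (-0.71, adjusted p = 0.0133). Tbx20 and Nkx2-5, heart factors, had no counts, and Wt1, named after its values were seen, was level at 150.2 and 149.7 CPM.

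The uterine axis of GATA2 and the progesterone receptor had 15 tested genes of 16, 1 higher and 1 lower (median -0.11, against 0.00044 over all tested genes, of which 5.34% passed in either direction). Sox17, a glandular epithelium factor, rose from 155.0 ± 15.5 to 197.0 ± 13.02 CPM (log2 fold change 0.35, adjusted p = 0.0211), though not without control 1, cKO 2 or cKO 3 (adjusted p up to 0.0714). Ihh, the epithelial hedgehog ligand that progesterone induces, fell from 4.36 ± 0.950 to 0.360 ± 0.256 CPM (log2 fold change -3.58, SE 0.34, adjusted p = 0.000105). Pgr itself, chosen after its values were seen, was at 583.0 ± 31.9 and 468.9 ± 100.6 CPM and did not pass (log2 fold change -0.31, adjusted p = 0.176).

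Of genes that GATA factors are known to switch on in blood, 13 of 17 were tested, and 2 were higher and 0 lower in cKO, where 2.62% of all tested genes were higher and 2.71% lower. Zfpm1, itself a member, is among the tested genes of this list and did not pass. Itga2b, an integrin of platelets, went from 10.6 ± 1.11 to 14.9 ± 2.50 CPM (log2 fold change 0.49, adjusted p = 0.0408), and Il1rl1, the interleukin-33 receptor of mast cells and type 2 lymphoid cells, from 2.52 ± 0.648 to 4.30 ± 0.561 CPM (log2 fold change 0.76, adjusted p = 0.0371). Each passed in 2 of the 8 fits without a library, Itga2b without control 2 or cKO 4 and Il1rl1 without control 3 or cKO 4, and not in the other 6 (adjusted p up to 0.139 and 0.113). Of 13 GATA3 targets 9 were tested, with Il1rl1 and Zbtb7b higher and 0 lower. Zbtb7b, a helper T cell factor, was at 39.6 ± 1.69 and 49.2 ± 3.58 CPM (log2 fold change 0.31, adjusted p = 0.0178), and did not pass without control 1, cKO 1 or cKO 3 (adjusted p up to 0.0765).

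Of targets of GATA4, GATA5 and GATA6 in mesoderm, 15 of 23 were tested, and 2 were higher and 2 lower, where 5.34% of all tested genes passed in either direction. Myh6, the heart myosin, was at 1.26 ± 0.248 and 2.51 ± 0.605 CPM (log2 fold change 0.99, adjusted p = 0.0230), and did not pass without control 1, control 4, cKO 1 or cKO 2 (adjusted p up to 0.0885). Tnnt2, a heart troponin, rose from 50.7 ± 3.31 to 70.6 ± 10.5 CPM (0.48, adjusted p = 0.0136; 0.0542 without cKO 1). Bmp4, a growth factor of mesoderm, fell from 22.6 ± 2.08 to 16.4 ± 1.22 CPM (-0.46, adjusted p = 0.00968), and Amhr2 fell as given above. Over the 15 genes the median was 0.25 on the log2 scale, against 0.00044 over all tested genes.

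Markers of the cell types that express these genes were set beside them. Among all tested genes 2.62% were higher, 2.71% lower and 12.3% without overlap between the genotypes. Of 9 tested mast cell genes, 0 passed in either direction (median 1.07 on the log2 scale, Gata2 included). Named after their values were seen, Mcpt4 (1.33), Tpsb2 (1.28), Cma1 (1.11), Mrgprb2 (1.07) and Cpa3 (1.07) lay above 0, as did Gata2. Tpsab1 (-2.42), Hdc (-1.32) and Kit (-0.04) lay below. The summed level of the list is mostly Gata2 itself and so says little of mast cells. It was 340.7 to 418.4 CPM in controls and 352.2 to 405.2 CPM in cKO. Of the 8 tested red cell genes, 14 endothelial genes, 2 eosinophil genes, 10 uterine epithelial genes, 9 smooth muscle genes and 8 mesothelial genes, 0 passed, and neither did any of 11 stratified epithelial, 7 ovarian, 6 oviductal, 4 sympathetic neuron or 11 PRC2 genes. Of 16 T and innate lymphoid genes, 1 was higher (Il1rl1) and 5 were lower, the lower with the largest change being Ncr1 (-2.29, adjusted p = 0.00236), Klrk1 (-2.20, 0.00759), Il2rb (-1.80, 0.000911) and Klrb1c (-1.29, 0.0168; up to 0.0640 without control 1 or cKO 2). The fifth, named after its values were seen, was Thy1, a surface protein gene of T cells and of fibroblasts, at 151.1 ± 15.5 CPM in controls and 111.7 ± 7.44 CPM in cKO (-0.44, adjusted p = 0.0060). The list, mostly Thy1 by level, summed to 176.1 to 229.0 CPM in controls and 148.8 to 163.0 CPM in cKO, without overlap. The fitted change of Gata3, a factor of T cells and type 2 innate lymphoid cells, lay above 0 and did not pass. The part of these cells in the level of Gata3 was not tested. Of 5 megakaryocyte and platelet genes, Itga2b was higher and Itgb3 lower (-0.56, adjusted p = 0.0347; up to 0.0958 without control 1, control 4, cKO 2 or cKO 3). Of 8 stromal genes, Col3a1 was higher (0.36, adjusted p = 0.0454, passing among the fits without a library only without control 2 or cKO 4, and 0.0504 without the robust setting) and Hoxa10 (-0.62, adjusted p = 0.000377) and Hoxa11 (-0.49, 0.00522) were lower. Of 8 fat genes Pparg was higher (1.63, adjusted p = 0.0418, passing without control 4 or cKO 4 and not without any one of the other 6, nor with limma-voom (0.102) or no filter on low counts (0.0685)) as was Adrb3 (1.34, adjusted p = 0.00204), and the list's median was 5.32.

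**Figure D5:**
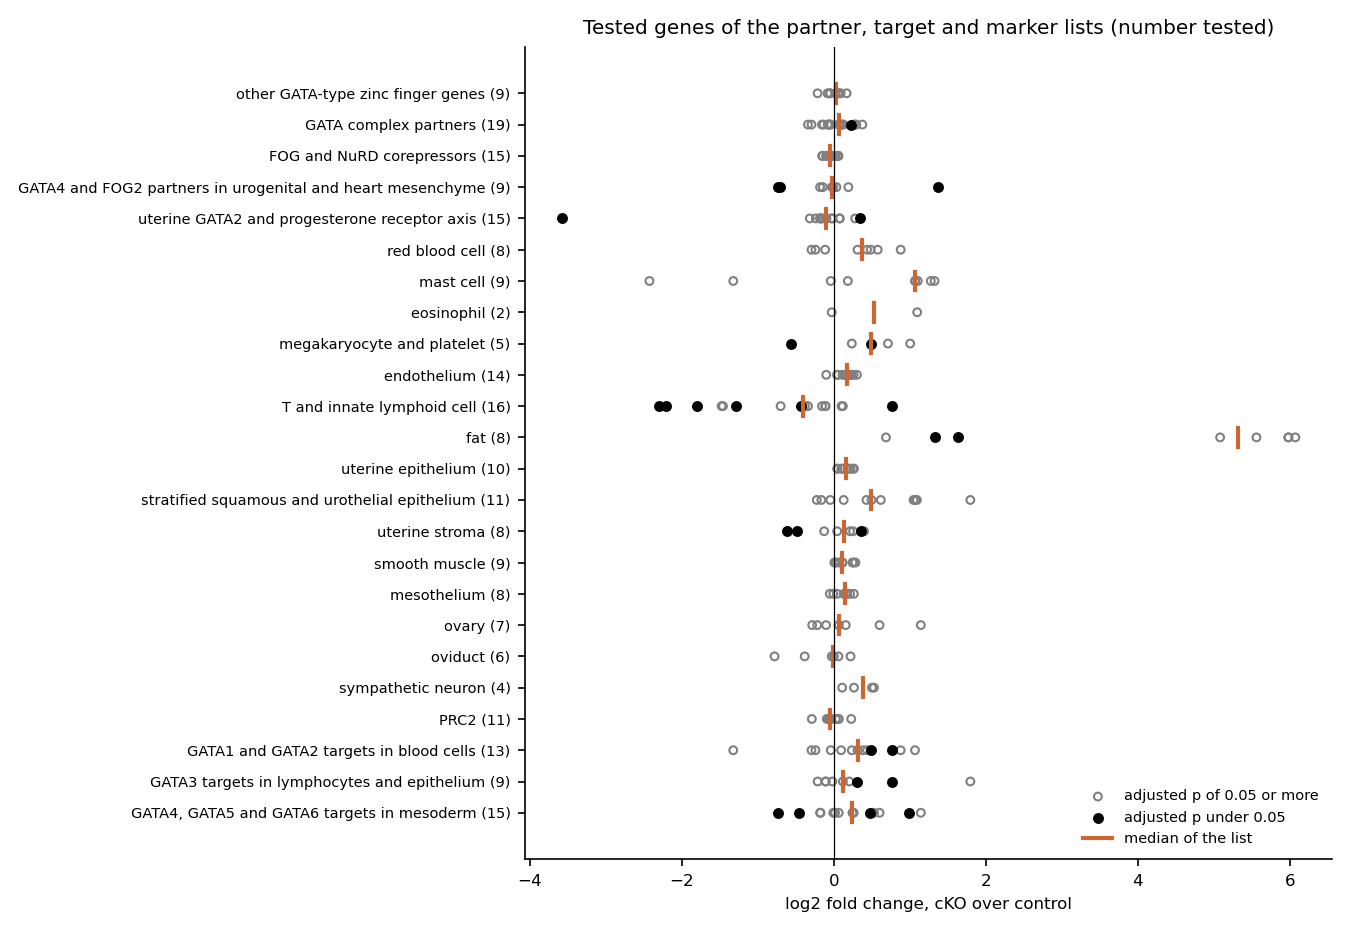
Log2 fold change of cKO over control for the tested genes of the 24 partner, target and marker lists, with the number tested beside each name, filled points for an adjusted p under 0.05 and a bar at each list's median. The fat list lies far to the right (median 5.32) and the FOG and NuRD list lies close to 0 (median -0.04).

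The genes most like each member across the 8 libraries were listed by Pearson r of log2 CPM, as a description. For Gata6 these were Mamstr (r = 0.992), Xrcc3 (0.991) and Gm4673 (0.987), all with an adjusted p under 0.05 (0.00268, 0.0320 and 0.0257). For Zfpm2 they were Gm16675 (0.983), Metrnl (0.975) and Astn1 (0.972). For Gata2 they were Trappc9 (0.997), Zfp46 (0.993) and Icam5 (0.990), for Gata3 St8sia6 (0.978), Oacyl (0.968) and Brat1 (0.965), for Gata5 Zfp414 (0.972), 4931408D14Rik (0.971) and Gm10865 (0.971), and for Zfpm1 Kremen1 (0.969), Pam16 (0.956) and Gm19733 (0.951). The points share the genotypes and the fat difference, so these values say nothing of each gene by itself.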

How the data were processed

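4 control and 4 cKO samples of whole uterus were profiled from stranded mRNA libraries. Per the labels and methods, reads were trimmed with Trimmomatic, checked with FastQC, aligned to GRCm38 with HISAT2 and counted per gene with featureCounts, and the authors deposited the raw counts per gene for each library. Versions, the strand setting and the gene annotation are not given in the sources used here. The deposited table of the authors' edgeR comparison (fold changes and p-values) served only to pair Entrez identifiers with symbols (25440 of 27179 named), and their normalized table was not used.

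Counts were fitted with edgeR 4.0.16 in R 4.3.3 (TMM scaling, CPM over 0.2 in at least 4 libraries, robust quasi-likelihood test, Benjamini-Hochberg adjustment over all 16658 tested genes), and levels are TMM-scaled CPM. Alternatives were DESeq2 1.42.0, limma 3.58.1 (voom), other scalings and filters, the robust setting off, a prior count of 2, a replicate block, each library left out, cKO 4 alone and a fat score. On simulated data for the 16658 genes, 100 of 100 4-fold and 99 of 100 2-fold changes were recovered with 11 false calls, and data without change gave 2 calls. Changes under 2-fold were not simulated. The exact permutation test used log2(CPM + 0.1). Lengths came from GENCODE on GRCm38. A floor of 3 counts covers counting error only. Library totals of 25287141 to 36685807 set the precision. No pair of libraries agreed within sampling noise (chi-square per gene 7.80 to 31.8 over 28 pairs).

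The naming rule took all 8 members, overlapping and nearest genes, up to 4 list genes per list with an adjusted p under 0.05, the 3 genes most like each member, and Ezh2. The members and lists were chosen with earlier results of these data known.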

Additional observations from a re-analysis of the deposited data

Results flagged for a closer look

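Of the 16 groups of 4 libraries tested (8 genes in each genotype), 1 held a library far from the others, where chance gives about 1 in 20 groups. This was Gata2 in cKO 4, at 253.8 CPM against 309.0 to 315.3 CPM in the other 3 cKO libraries. The gap to the nearest library was 0.898 of the range, past the critical value of Dixon's test for 4 samples. The fat genes were also low in that library, at a summed 16.0 CPM against at least 116.1 CPM in the other 3. The stroma list was lower there too, at 10112 CPM against at least 12793 CPM, while the epithelium list was highest there (1840 CPM). The part of these lists in the Gata2 level was not tested.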

How the results depend on the processing

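Of 19 alternatives, Gata6 kept an adjusted p under 0.05 in 17 and Zfpm2 in 10, and in none did a member pass the fold threshold of 2 together with an adjusted p under 0.05 (0 of the members in each). Among these alternatives, a prior count of 2 changes the fitted fold but not the p-value, so its adjusted p-values repeat those of the main fit. Zfpm2 was over 0.05 with limma-voom, which left 1 member under 0.05. With cKO 4 alone, members under 0.05 numbered 0, all differentially expressed genes 22 and all genes under 0.05 38; with the fat score these were 0, 28 and 58. In those fits Gata2 (-0.041 and -0.054), Gata3 (-0.38 and -0.32) and Gata5 (-0.13 and -0.15) turned negative. Of the 22 list genes named by rule, only Ihh kept its call with the fat score. All 22 kept their direction, and 8 had a log2 fold change at least as large in both fits (Ncr1, for example, -3.22 and -3.18 against -2.29). Others shrank, among them Pparg (0.31 and 0.18 against 1.63), Col3a1 (0.09 and 0.09 against 0.36) and Itga2b (0.17 and 0.13 against 0.49). cKO 4 is then a lone cKO library, assumed to vary like the controls. DESeq2 gave 1506 genes under 0.05 against 889, and a filter of 1 CPM gave 139 differentially expressed genes against 217. Leaving out 1 library gave 1 to 3 members under 0.05, 0 to 0 differentially expressed, 134 to 320 differentially expressed genes and 393 to 1773 genes under 0.05. The extremes were without control 1 (134 and 393) and without cKO 4 (320 and 1773). The shared replicate numbers are not known to pair the samples: deviations of same-numbered libraries correlated at 0.0196, 0.110, -0.00026 and 0.190, and the replicate block gave 2 members under 0.05, Gata6 0.71 (adjusted p = 0.00103) and Zfpm2 0.54 (0.0374), and 0 differentially expressed members. Of the list genes named, Lmo4 (0.0638) and Pparg (0.0812) were over 0.05 with the block. With the block, 253 genes were differentially expressed and 1240 had an adjusted p under 0.05. Depth limits Gata1 and Gata4, at 0 to 6 counts a library.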
